A study of Homo sapiens with 20 samples.

Results

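The last step of a neuronal differentiation series, from day 11 to day 18, was described in polyadenylated RNA of neural progenitor cells made from the established human embryonic stem cell line H1. All gene records of the deposited table were compared between these 2 days except 6 whose estimate had been marked as exceeding the data limit (HIDATA), so 38363 of 38369 records entered, and 14438 of them, 11791 coding and 2647 long intergenic noncoding RNA (lincRNA) records, had a mean of at least 1 FPKM (fragments scaled to transcript length and to sequencing output) over the 7 days sampled. The progenitors had been grown with FGF. From day 0, FGF was withdrawn and BDNF was supplied at every medium change, and the cells collected on days 11 and 18 had been moved at day 4 onto poly-D-lysine and laminin. Each of these 2 days had 3 cultures, 6 of the 20 samples of the series, all from this 1 cell line, with no genetic change and no untreated parallel culture, so time and culture history cannot be told apart.

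Neurons leaving the cell cycle first switch on proneural transcription factors and growth cone proteins, and only later build up synaptic vesicle proteins, ion channels and transmitter receptors. BDNF acts through its receptor NTRK2 and the ERK pathway, whose activity is damped by induced feedback inhibitors. Cells short of oxygen stabilize the hypoxia-inducible factors (HIF), which switch on glycolytic enzymes, glucose transporters and secreted factors such as VEGFA.

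Cuffdiff2 had pooled the cultures of a day into 1 FPKM value per record, so no difference below has a replicate check, no test was made here from these pooled values, and the depth behind each value is unknown. The authors' own test columns were not used. FPKM values of the records summed to 312089 at day 11 and 251156 at day 18. The median record with a mean of at least 1 FPKM differed by -0.28 in log2(FPKM + 0.1), and every change given below is relative to that median. A record was counted as higher or lower when this centred change was at least 2-fold, a limit of 1 on the log2 scale. In bulk RNA a smaller share of cells of a type and less RNA per cell cannot be told apart.

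Between day 11 and day 18, 216 of 11791 coding records were at least 2-fold higher (1.83%) and 163 were at least 2-fold lower (1.38%). These 2 shares are the background for every count of list members given below. The central 95% of the coding records changed by between -0.85 and 0.89. For comparison, 308 coding records were higher and 367 lower from day 5 to day 11, 532 were higher and 261 lower from day 0 to day 1, and 32 in all passed the limit from day 1 to day 2. These intervals are of 6 days, 1 day and 1 day, against 7. Of the 216 coding records that rose, 157 had their highest value of the 7 days at day 18 (72.7%, against 8.74% of all coding records). Of the 163 that fell, 144 had their lowest value then (88.3%, against 66.0%). Both shares are raised by the selection, since the calls themselves use the day 18 value. The share of higher records among those called depended on centring: it was 57.0% as given and 18.5% with no centring (99 higher and 437 lower). Records just inside the upper limit included FAM13C (1.003) and just outside it C4orf32 (0.996), and on the lower side ITIH4,MUSTN1,TMEM110 (-1.002) lay inside and CDC20 (-0.9997) outside. Calls were unevenly spread over expression level, with 145 of the 216 higher records in the lowest quartile by mean FPKM (1.00 to 5.08 FPKM) and 17 in the highest.

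**Figure D1:**
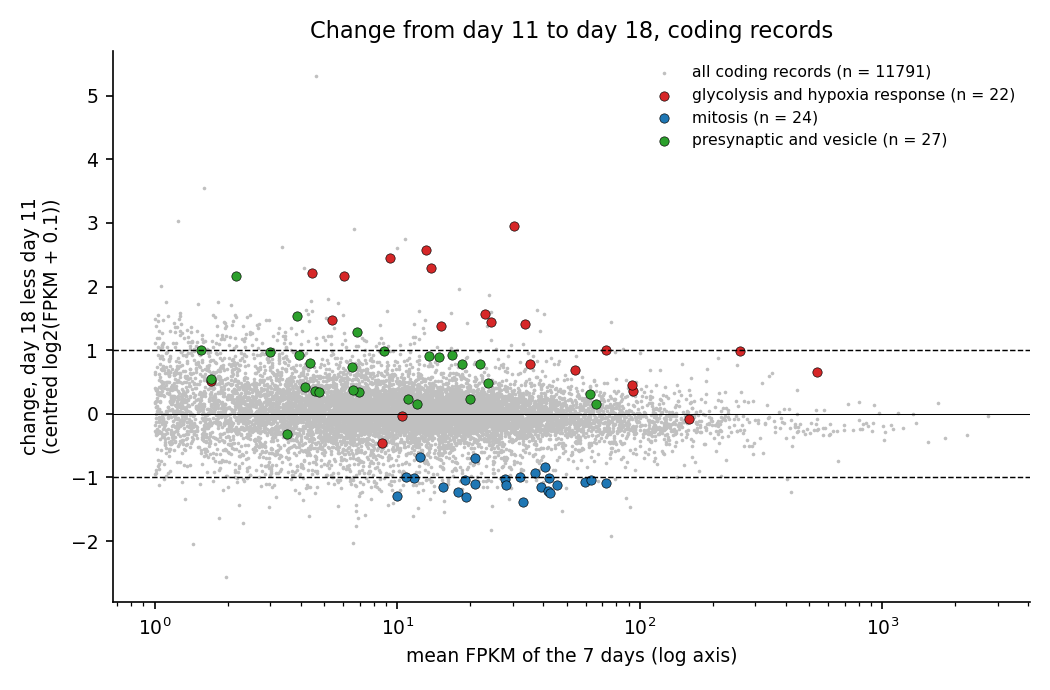
Change from day 11 to day 18 (centred log2 of FPKM + 0.1, vertical axis) against mean FPKM of the 7 days (horizontal log axis) for the 11791 coding records, each point 1 record. Red points are the 22 expressed glycolysis and hypoxia-response genes (median 1.20), blue the 24 mitosis genes (median -1.08) and green the 27 presynaptic genes (median 0.73). The dashed lines mark the 2-fold limits.

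Of the 15 coding records with the largest rises, 6 belonged to the glycolysis and hypoxia-response list. VEGFA, the growth factor that draws in blood vessels, stood at 11.1 FPKM on day 0, 54.2 on day 2 and 25.5 on day 5, and went from 6.00 at day 11 to 38.7 at day 18 (change 2.95; chr6:43737953-43754221 in hg19). BNIP3, a mitochondrial protein of mitophagy and cell death, lay between 7.41 and 10.5 FPKM on the first 6 days and at 37.0 at day 18 (2.58; chr10:133781187-133795435). For BNIP3 the day 18 value thus stood apart from the whole course. VEGFA had been near its day 18 value on days 1 and 4 (38.2 and 38.3 FPKM) and higher on day 2. A coding-catalogue record without a symbol at chr14:28733620-28735149, which GENCODE annotates as the processed pseudogene BNIP3P1, went from 5.17 to 26.3 FPKM (2.60), and reads of BNIP3 and of this near-identical copy may not have been separated. SLC16A3, the lactate exporter MCT4, went from 0.56 to 6.30 (3.56). It was under 1 FPKM on all earlier days and passed the filter on mean FPKM only through day 18. STC2, a secreted stanniocalcin, went from 0.81 to 5.51 (2.90), and the repressor BHLHE40 from 1.02 to 5.60 (2.62). Both had their lowest value of the 7 days at day 11. STC2 had read 1.55 FPKM at day 0 and at least 6.49 on days 1 to 5, above its day 18 value. BHLHE40 had lain between 2.31 and 4.83 FPKM on days 0 to 5, under its day 18 value. STC2 and BHLHE40 are known to respond to low oxygen, among other signals, and so is PLOD2, a lysyl hydroxylase of collagen. PLOD2 went from 2.04 to 8.52 (2.29). The cause of the rises of STC2, BHLHE40 and PLOD2 was not tested. The record with the largest fitted rise, ZNHIT2 (0.01 to 3.51 FPKM, 5.31), was 1 of the 360 whose estimate was marked as failed at this step, and it had lain between 5.34 and 6.07 on all earlier days.

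Of the 25 listed glycolysis and hypoxia-response genes, 22 had a mean of at least 1 FPKM, and 12 of these were at least 2-fold higher at day 18 (54.5%, against 1.83% of all coding records), 0 were lower, and the median change was 1.20 against 0.00 over all coding records. Without centring 11 of the 12 passed the limit. ADM, the vasodilator peptide adrenomedullin, went from 1.41 to 6.75 FPKM (2.45), after 7.97 to 22.1 on days 0 to 5. P4HA1, a prolyl hydroxylase of collagen, went from 5.99 to 24.5 (2.29). PDK1, the kinase that keeps pyruvate out of mitochondria, went from 2.51 to 9.85 (2.21), and hexokinase HK2, the first enzyme of glycolysis, from 3.38 to 12.8 (2.17). The glycolytic regulators followed with smaller steps. PFKP, a phosphofructokinase, went from 5.26 to 13.0 (1.56), PFKFB4 from 4.39 to 10.2 (1.47) and PFKFB3, which with PFKFB4 sets the level of its activator, from 12.2 to 26.3 (1.38). The neuronal enolase ENO2 went from 26.0 to 58.5 (1.44), the glucose transporter SLC2A3 from 6.59 to 14.5 (1.40), and PGK1, a core enzyme of glycolysis, from 53.9 to 89.6 (1.01). The list did not move as a block. ENO1 (289 to 376 FPKM, 0.66) and ALDOA (135 to 220, 0.98) stayed under the limit, and LDHA (9.45 to 7.57, -0.04), SLC2A1 (118 to 91.6, -0.08) and NDRG1 (5.77 to 3.41, -0.46), also textbook HIF targets and named after their values were seen, had values below 0. Of the 12 genes, 9 had their lowest value of the 7 days at day 11, and 7 had their highest at day 18. Choosing genes by their rise over this step favours both. The 3 members under a mean of 1 FPKM were CA9 (listed at 0 at day 11 and at 0.04 at day 18), EGLN3 (0.39 and 2.61) and ANKRD37 (0.37 and 1.39).

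**Figure D2:**
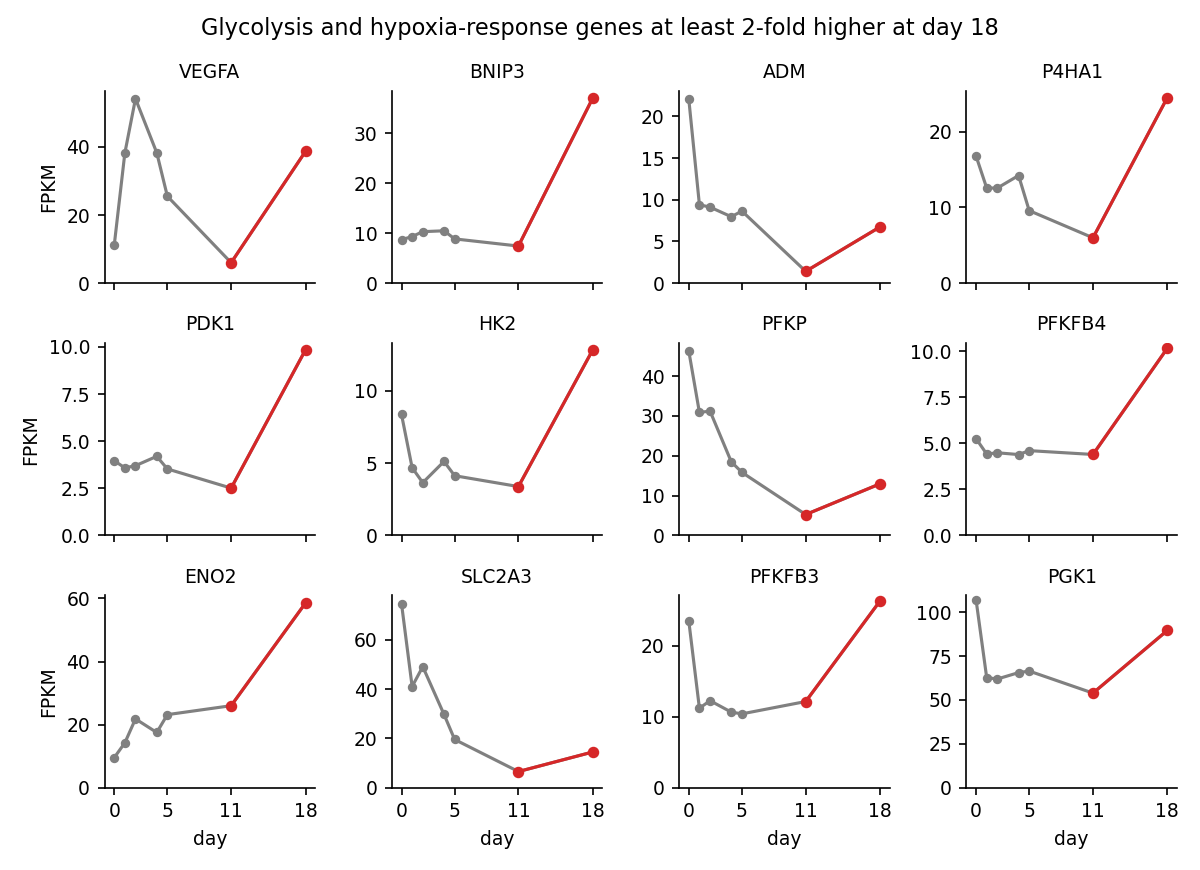
FPKM (vertical axis, from 0) by day (horizontal axis) for the 12 glycolysis and hypoxia-response genes at least 2-fold higher at day 18, 1 panel a gene and 1 authors' value a day, with the step from day 11 to day 18 in red. BNIP3 stayed between 7.41 and 10.5 FPKM until day 11 and reached 37.0, while SLC2A3 and PFKP started from 74.6 and 46.3 at day 0 and stayed far under those values.

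Sequence just upstream of some genes that were higher in this group, and of some mitosis genes described below, is shown next. In the RefSeq promoter table (GRCh38.p14; 250 bases before to 50 after the gene start), the letters ACGTG, read on either strand as ACGTG or CACGT and known as the core of hypoxia response elements, occurred at 15 of 22 glycolysis and hypoxia genes present in the table (68.2%), at 8 of the 10 called ones present (80.0%), at 24.9% of all 27305 genes and at 32.6% of expressed coding genes. It also occurred at 11 of 21 DNA replication genes (52.4%) and 8 of 20 mitosis genes (40.0%), lists without a higher member. The letters CCAAT (or ATTGG), read by the factor NF-Y, occurred at 18 of 20 mitosis genes present (90.0%), 14 of 21 DNA replication genes (66.7%), 9 of 22 glycolysis and hypoxia genes (40.9%) and 39.7% of all genes. The letters TTTGAA (or TTCAAA), known as the cell cycle genes homology region, occurred at 14 of 20 mitosis genes (70.0%), 1 of 21 DNA replication genes and 18.2% of all genes. In the 250 bases upstream of the start printed here, 5′ to 3′ on the gene's strand, capitals mark the first motif (either strand) in BNIP3, P4HA1 and PGK1 and the other pair of motifs in CCNB1 and CDC20, and any further matches are left in lower case.
BNIP3: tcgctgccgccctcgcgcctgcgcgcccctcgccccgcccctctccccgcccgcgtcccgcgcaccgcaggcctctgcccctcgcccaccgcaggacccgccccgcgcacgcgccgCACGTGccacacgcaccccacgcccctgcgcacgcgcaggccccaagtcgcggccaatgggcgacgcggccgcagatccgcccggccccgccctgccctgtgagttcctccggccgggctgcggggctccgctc
P4HA1: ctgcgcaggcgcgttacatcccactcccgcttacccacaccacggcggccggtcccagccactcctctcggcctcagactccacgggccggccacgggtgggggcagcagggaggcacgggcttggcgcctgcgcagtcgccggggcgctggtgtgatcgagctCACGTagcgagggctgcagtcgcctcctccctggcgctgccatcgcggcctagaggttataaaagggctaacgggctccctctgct
PGK1: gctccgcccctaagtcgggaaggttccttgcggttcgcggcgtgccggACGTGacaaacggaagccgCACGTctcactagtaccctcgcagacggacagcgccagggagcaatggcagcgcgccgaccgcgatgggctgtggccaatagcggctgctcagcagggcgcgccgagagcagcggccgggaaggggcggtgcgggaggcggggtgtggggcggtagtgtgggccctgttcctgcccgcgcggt
CCNB1: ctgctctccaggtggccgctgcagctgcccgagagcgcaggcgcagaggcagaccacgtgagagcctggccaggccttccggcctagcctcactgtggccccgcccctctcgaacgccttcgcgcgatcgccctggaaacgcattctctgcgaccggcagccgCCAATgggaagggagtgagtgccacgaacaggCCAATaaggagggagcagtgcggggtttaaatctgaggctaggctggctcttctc
CDC20: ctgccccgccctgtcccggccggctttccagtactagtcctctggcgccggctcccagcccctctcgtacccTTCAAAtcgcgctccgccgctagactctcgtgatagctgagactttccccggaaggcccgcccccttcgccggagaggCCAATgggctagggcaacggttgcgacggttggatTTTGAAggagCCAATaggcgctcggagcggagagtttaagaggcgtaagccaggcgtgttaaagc
These stretches lie at chr10:131981924-131982173 (minus strand), chr10:73096867-73097116 (minus), chrX:78103998-78104247 (plus), chr5:69166900-69167149 (plus) and chr1:43358731-43358980 (plus) in GRCh38.p14. In BNIP3 the 2 matches overlap to form the palindrome CACGTG, P4HA1 holds 1 match, and PGK1 holds 2. CCNB1 holds 2 CCAAT matches, and CDC20 holds 2 CCAAT and 2 TTTGAA matches. A match describes the letters only, and no factor binding was measured.

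Cell division genes stood at the other end of the distribution. Of 24 mitosis genes, 18 were at least 2-fold lower at day 18 (75.0%, against 1.38% of all coding records) and 0 were higher (median change -1.08). All 24 were below 0 with and without centring and had their lowest value of the 7 days at day 18. Over all coding records, 5890 of 11791 were below 0 (9601 without centring) and 66.0% were lowest at day 18. MKI67, the proliferation marker, read 74.2 FPKM at day 0, 38.4 at day 11 and 14.2 at day 18 (-1.16). AURKB, a kinase of chromosome segregation, went from 26.9 to 8.41 (-1.39), DLGAP5, a spindle protein, from 17.1 to 5.67 (-1.30), and HMMR, another spindle-associated protein, from 7.46 to 2.45 (-1.29). CCNB1, the cyclin that drives entry into mitosis, went from 50.6 to 20.3 (-1.04), and TOP2A, which untangles replicated chromosomes, from 64.9 to 25.3 (-1.08). The most abundant member, the ubiquitin-conjugating enzyme UBE2C, went from 66.5 to 25.9 (-1.08). CDC20, whose upstream sequence is printed above, went from 26.7 to 11.0 and lay just outside the limit. The division genes were thus still present at day 18, at lower levels than on any earlier day.

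The 24 DNA replication genes were also all below 0 under both scalings and all at their lowest at day 18, but with smaller changes (median -0.82). The shares over all coding records are those given for mitosis. RRM2, which supplies deoxynucleotides, went from 21.8 to 7.04 FPKM (-1.34), GINS2, a helicase subunit, from 29.3 to 11.7 (-1.04), and CDC45L, its helicase partner, from 7.43 to 2.81 (-1.09). Only these 3 of 24 passed the limit (12.5%, against 1.38% of all coding records). Without centring 19 of 24 replication genes and 22 of 24 mitosis genes passed it. The sliding clamp PCNA (103 to 49.5, -0.78) and MCM7 (83.1 to 42.3, -0.70), a subunit of the replicative helicase, stayed under it. In the step before, from day 5 to day 11, the list medians had been 0.28 for mitosis and 0.04 for DNA replication. Both steps share the day 11 value. Among 19 p53 targets and CDK inhibitors, 0 were higher and 1, the CDK4 and CDK6 inhibitor CDKN2C, was lower (3.83 to 1.51 FPKM, -1.01). At this list size both counts are near the background of 1.83% higher and 1.38% lower. CDKN1A, the p21 inhibitor, read 73.3 and 68.0 (0.17, and -0.11 with no centring).

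**Figure D3:**
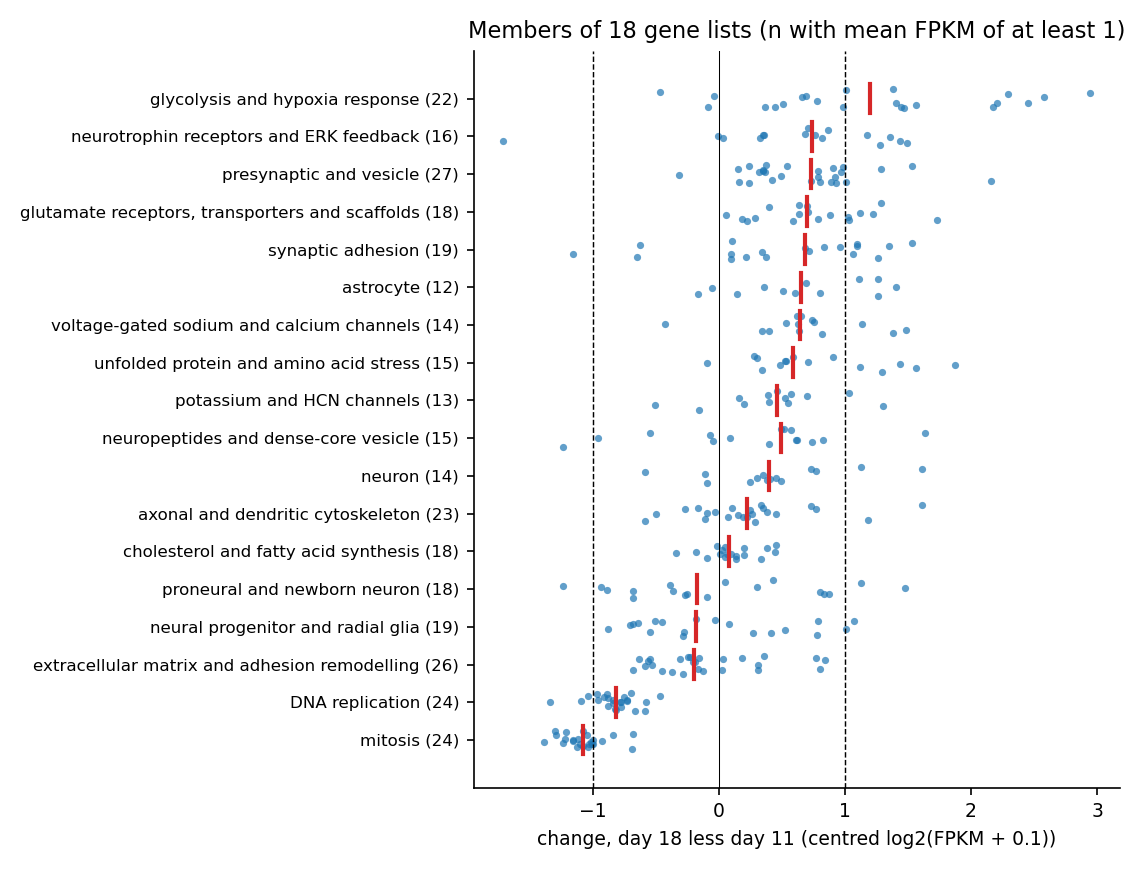
Change from day 11 to day 18 (horizontal axis, centred log2 of FPKM + 0.1) of each expressed member of 18 gene lists, 1 point a gene, with the list median as a red bar and the number of members in brackets. Dashed lines mark 2-fold. The glycolysis and hypoxia list sits highest (median 1.20), synaptic, channel and astrocyte lists lie between 0.46 and 0.73, and DNA replication (-0.82) and mitosis (-1.08) lie lowest.

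Synaptic and channel genes are given by their place in the synapse, starting with the presynaptic side. Of 27 expressed presynaptic and vesicle genes, 26 were above 0 (22 without centring) and 20 had their highest value of the 7 days at day 18. Over all coding records, 50.0% were above 0 (2190 of 11791 without centring) and 8.74% were highest at day 18. Of the 27, 4 were at least 2-fold higher (14.8%, against 1.83%) and 0 lower, with a median change of 0.73. In the lowest quartile by mean FPKM, 145 of 2948 coding records were at least 2-fold higher. SYT13, an atypical synaptotagmin, had started from 0.05 FPKM at day 0 and went from 2.83 to 10.7 (2.16). SYT13 was under 1 FPKM on days 0 to 5 and passed the filter on mean FPKM only through day 18. The calcium sensor family member SYT5 went from 6.04 to 14.6 (1.53), the vesicle GTPase RAB3C from 10.2 to 20.6 (1.28), and CPLX1, a complexin that clamps vesicle fusion, from 2.19 to 3.70 (1.01). Without centring, CPLX1 did not pass the limit. The abundant members moved less, with VAMP2, the vesicle SNARE protein, at 81.4 and 75.0 FPKM (0.16, and -0.12 with no centring) and SYT11 at 82.0 and 84.5 (0.32).

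On the receiving side, 18 of 29 listed glutamate receptors, transporters and scaffolds were expressed and all 18 were above 0 (15 without centring). At least 2-fold higher were 6 of them (33.3%, against 1.83% of all coding records), or 2 without centring, and the median change was 0.70. Only 7 of the 18 had a mean of at least 5 FPKM. Among coding records of the lowest quartile (1.00 to 5.08 FPKM), 145 of 2948 were at least 2-fold higher. DLG2, a scaffold of the postsynaptic density, went from 1.60 to 4.55 FPKM (1.73), and SHANK1, another scaffold, from 2.20 to 4.54 (1.29). The AMPA receptor record that carries both GRIA2 and GRIA4 as symbols went from 10.3 to 19.9 (1.23) and cannot be assigned to one of them. The kainate receptor subunit GRIK1 went from 2.05 to 3.76 (1.12), and the NMDA receptor subunits GRIN2B and GRIN2D went from 2.38 to 4.08 (1.03) and from 2.30 to 3.93 (1.02). The receptor gene with the highest level, GRIA1, read 45.3 and 45.6 (0.28), and the scaffold DLG4, known as PSD-95, 20.3 and 29.1 (0.79). The remaining 11 listed genes had a mean under 1 FPKM. Of 21 listed GABA and glycine receptor and chloride transporter symbols, 7 were expressed. The 2 counted as higher, GLRA2 and GLRA3, are 1 record (3.57 to 7.03 FPKM, 1.23) that did not pass the limit without centring, while GABBR1 (23.4 and 23.6, 0.29) stayed under the limit.

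Of 14 expressed sodium and calcium channel genes, 12 had their highest value at day 18, against 8.74% of all coding records. The 3 that were at least 2-fold higher (21.4%, against 1.83%) were all sodium channel subunits, and the list median was 0.64. Only 6 of the 14 had a mean of at least 5 FPKM, and in the lowest quartile 145 of 2948 coding records were higher. SCN1A went from 1.83 to 4.36 FPKM (1.49), SCN2A from 2.51 to 5.53 (1.38) and SCN3B from 2.12 to 3.94 (1.14). These encode pore-forming or accessory subunits of the channels that carry action potentials. The most abundant calcium channel genes, CACNG4 (38.2 and 41.5, 0.40) and CACNB3 (17.4 and 22.3, 0.64), were under the limit. Among 13 expressed potassium and HCN channel genes (median 0.46), 2 were higher (15.4%, against 1.83%), or 1 without centring. They were KCND2 and KCND3, pore subunits of the A-type potassium current, which went from 1.85 to 3.87 (1.30) and from 3.06 to 5.22 (1.03). Only 3 of the 13 had a mean of at least 5 FPKM.

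Of 19 expressed synaptic adhesion genes, 6 were at least 2-fold higher (31.6%, against 1.83% of all coding records), 1 was lower, and the median was 0.69. Without centring 2, NRXN3 and CHL1, were higher. The presynaptic organizers NRXN2 and NRXN3 went from 9.34 to 16.6 FPKM (1.10) and from 1.51 to 3.75 (1.53). CHL1, an L1-family adhesion molecule, went from 6.78 to 14.4 (1.35), NCAM2 from 2.83 to 5.70 (1.26) and CNTN1, a contactin of axons, from 2.19 to 3.87 (1.07). Its relative CNTN2, which marks early growing axons, went the other way, from 75.7 to 28.0 (-1.16), after 4.87 at day 0. NCAM1 was the most abundant and read 90.3 and 133 (0.84).

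General neuron markers include cytoskeletal and growth cone proteins. Of 14 expressed neuron markers, 2 were higher (14.3%, against 1.83% of all coding records), and the median was 0.39. MAPT, the microtubule protein tau, went from 14.4 to 36.4 FPKM (1.61) and ELAVL4, a neuronal RNA-binding protein, from 2.67 to 4.89 (1.13). Without centring only MAPT passed the limit. STMN2, a growth cone protein, was already at 517 FPKM on day 11 and read 727 on day 18 (0.77), and the record of TUBB3, which also carries another symbol, read 647 and 502 (-0.09). Of 23 expressed axonal and dendritic cytoskeleton genes, MAPT and the tubulin TUBB4 (13.5 to 25.3, 1.18) were higher (8.70%; MAPT alone without centring), and the list median was 0.22, or -0.05 with no centring. The alpha-tubulin records TUBA1A and TUBA1A,TUBA1B were among the HIDATA records, listed at 0 on day 18 after 524 and 3301 FPKM on day 11, and were not compared.

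Among neuropeptide and dense-core vesicle genes, 15 were expressed (median 0.49). VGF, a granin precursor known to respond to BDNF, went from 11.5 to 29.6 FPKM (1.64), after 53.9 at day 0, and NPY, neuropeptide Y, from 2.60 to 0.85 (-1.24). The processing enzymes CPE (56.4 and 82.6, 0.83) and PAM (63.1 and 55.4, 0.09, and -0.19 with no centring) lay under the limit. Transmitter identity genes were mostly low. Of 16 GABAergic identity genes, 13 had a mean under 1 FPKM, and CALB2, the calcium-binding protein calretinin, rose from 7.63 to 15.6 (1.30). Of 9 expressed cortical and glutamatergic genes and 10 expressed axial identity genes, 0 passed the limit in either direction, with medians of 0.11 and 0.02 (-0.17 and -0.25 with no centring). At these list sizes 0 is near the background of 1.83% higher and 1.38% lower.

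Proneural factors drive the first steps of neuron formation. Of 18 expressed proneural and newborn-neuron genes, 11 had their highest value of the 7 days at day 11, a share not counted over all coding records. At the step to day 18, 2 were higher (11.1%, against 1.83% of all coding records) and 1 lower (5.56%, against 1.38%). With no centring 1 was higher and 3 lower, against 99 and 437 of all 11791 coding records. The median change was -0.17. DLL3, a Notch ligand of newborn neurons, went from 29.8 to 10.4 FPKM (-1.24). The 2 that were higher were ELAVL4 and MYT1L, a zinc finger repressor of non-neuronal genes, which went from 1.73 to 4.10 (1.47). Values of HES6 (108 and 69.0, -0.36) stayed under the limit. From day 5 to day 11 the median of the list had been 1.21, a step that shares day 11. Of 19 expressed progenitor and radial glia markers (median -0.18), 2 were higher (10.5%, against 1.83% of all coding records). They were the glutamate transporter SLC1A3 (36.2 to 63.1 FPKM, 1.08) and the matrix protein TNC (8.53 to 14.3, 1.01). Neither passed the limit without centring, where 1 marker, PAX3 (62.3 and 27.9 FPKM), was at least 2-fold lower. The intermediate filament genes VIM (1844 and 1493 FPKM, -0.03) and NES (310 and 180, -0.51) did not pass.

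**Figure D4:**
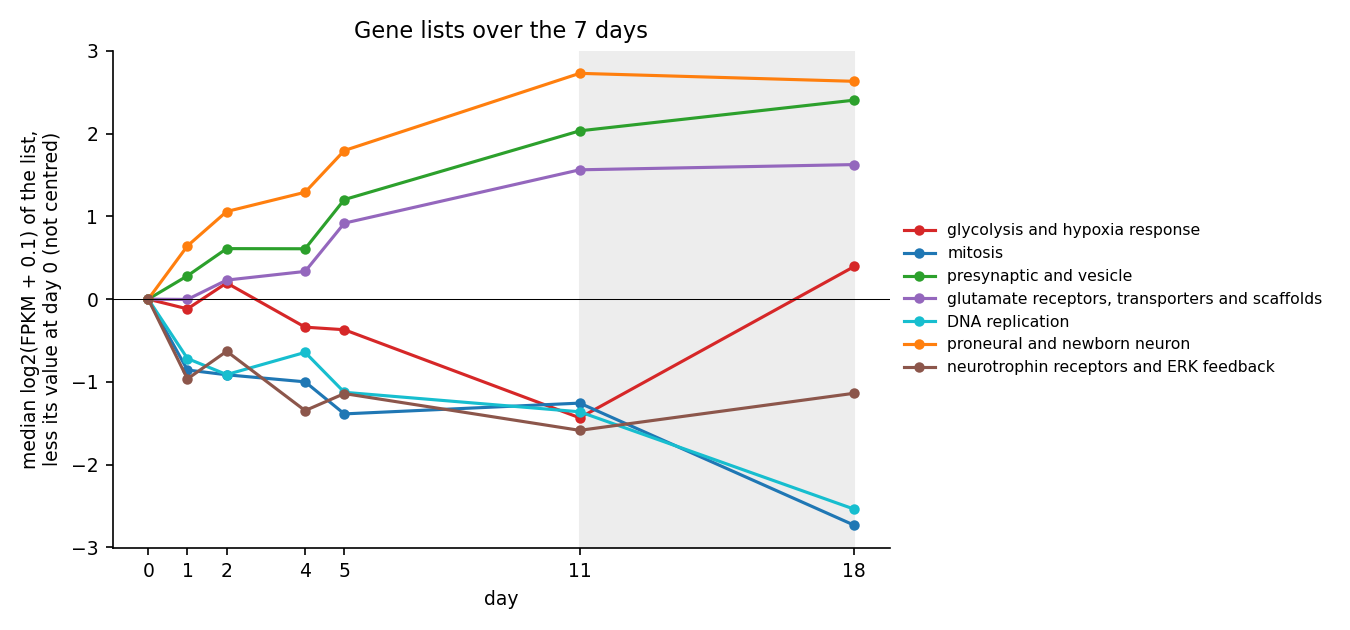
Median log2(FPKM + 0.1) of 7 gene lists over the 7 days, each less its own value at day 0 (vertical axis, not centred), with the step from day 11 to day 18 shaded. The mitosis and DNA replication lists reach their own lowest value at day 18 and the presynaptic and glutamate lists their own highest, and the hypoxia list turns upward after day 11.

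Astrocyte markers were taken as a further list. Of 12 expressed astrocyte markers, 4 were at least 2-fold higher (33.3%, against 1.83% of all coding records), or 1 without centring, and the median was 0.65. S100B, a calcium-binding protein, went from 1.89 to 4.25 FPKM (1.40) after 8.68 at day 0, SPARCL1, a secreted synapse-forming protein, from 13.4 to 26.7 (1.26), and SLC4A4, a bicarbonate transporter, from 1.56 to 3.19 (1.26). GFAP (0.02 and 0.04), AQP4 (0.19 and 0.21) and ALDH1L1 (0.02 and 0.02) had means under 1 FPKM, while the most abundant markers, GLUL (67.9 and 49.9, -0.17) and CLU (52.2 and 65.5, 0.60), both made by other cells too, did not pass the limit. BCAN, the matrix proteoglycan brevican made by glia and their progenitors, was outside this list. It went from 0.95 to 6.96 FPKM (3.02), after 0.06 at day 0. This was the third-largest rise among coding records with a mean of at least 1 FPKM, a mean that BCAN reached only through day 18.

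C1orf61, annotated by GENCODE as MIR9-1HG, the host transcript of the microRNA miR-9, rose from 11.2 to 63.0 FPKM (2.75; chr1:156374049-156400493 in hg19, minus strand). It had been between 0.14 and 0.42 on days 0 to 5, so nearly all of its rise fell in the last 2 intervals. miR-9 is abundant in neural progenitors and neurons and is known for repressing progenitor genes and REST. Its mature sequences, with the seed (bases 2 to 8) in capitals, are shown because the record spans the MIR9-1 hairpin, and they are those of RefSeq on the minus strand, at chr1:156420392-156420414 and chr1:156420354-156420375 in GRCh38.p14.
hsa-miR-9-5p: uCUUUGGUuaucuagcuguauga
hsa-miR-9-3p: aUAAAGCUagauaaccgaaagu
The 2 seeds differ, so the arms belong to different seed families. The level of the host transcript is not the level of the microRNA, which was not measured in polyadenylated RNA.

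BDNF receptors and the feedback genes of ERK form the next list. This list also holds the neurotrophin genes BDNF and NTF3, which are neither. Of its 16 expressed genes, 14 were above 0, against 50.0% of all coding records, and the median was 0.74. At least 2-fold higher were 5 (31.3%, against 1.83%), or 3 without centring, and 1 was lower. ETV4, an ETS factor induced by ERK, went from 4.44 to 10.0 FPKM (1.43), against 69.3 at day 0 in the presence of FGF. The feedback inhibitors SPRY1 (3.67 to 7.86, 1.36), SPRY4 (4.69 to 9.48, 1.28) and DUSP4 (7.68 to 14.4, 1.18) also stayed far under their day 0 values of 44.7, 28.4 and 25.3. BDNF, the gene of the factor supplied in the medium, went from 0.42 to 1.12 (1.49, or 0.80 with a pseudocount of 1). NTF3, its relative neurotrophin-3, fell from 3.18 to 0.73 (-1.71), and the receptor NTRK2 read 58.8 and 62.2 (0.36). Among 11 expressed immediate early genes (median 0.30), 3 were higher (27.3%, against 1.83% of all coding records). They were FOS (1.62 to 3.29, 1.25), EGR1 (4.72 to 9.12, 1.21) and FOSL2 (1.56 to 2.76, 1.06). None of these 3 passed the limit without centring.

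Most listed stress genes of the amino acid response and the unfolded protein response had their low point at day 11. Of 15 such genes, 13 had their lowest value of the 7 days then, a share not counted over all coding records. At the step to day 18, 14 were above 0 under both scalings. Over all coding records, 50.0% were above 0 (2190 of 11791 without centring). At least 2-fold higher were 5 (33.3%, against 1.83% of all coding records), or 4 without centring, with a median of 0.59. CHAC1, which degrades glutathione, went from 2.92 to 9.01 FPKM (1.87), TRIB3, a pseudokinase induced by ATF4, from 4.28 to 10.6 (1.57), and DDIT3, the factor CHOP, from 7.80 to 15.9 (1.29). CEBPB, a transcription factor of the same response, went from 1.16 to 2.15 (1.12). DDIT4, an inhibitor of mTORC1 that also responds to low oxygen, went from 28.6 to 64.0 (1.44). The chaperone HSPA5 read 80.5 and 62.2 (-0.10) and ATF4 141 and 164 (0.49), so the most abundant members did not pass the limit.

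The 15 largest falls among coding records held 0 genes of the mitosis and replication lists and included several secreted and surface proteins. IFITM1, an interferon-induced membrane protein, read 126 FPKM at day 0, 14.1 at day 11 and 2.99 at day 18 (-1.92), and IFITM3 871, 136 and 47.5 (-1.24). These were the 2 of 9 expressed interferon and antigen presentation genes that passed (22.2%, against 1.38% of all coding records), and the list median was -0.08. RARRES2, the chemoattractant chemerin, went from 13.3 to 3.03 (-1.82). BMP5, a bone morphogenetic protein, went from 7.12 to 1.97 (-1.52), GDF10, a related secreted factor, from 1.89 to 0.43 (-1.63), and ID3, an inhibitor of helix-loop-helix factors, from 3.68 to 0.92 (-1.61) after 44.8 at day 0. HES3, a transcriptional repressor found in neural stem cells, went from 19.1 to 5.32 (-1.55). COL2A1, the cartilage collagen also made by early neural tissue, went from 23.6 to 6.70 (-1.52) after 103 at day 0.

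Other genes in this set had been highest of the 7 days at day 11 itself. NPPC, the gene of C-type natriuretic peptide, read 0.28 FPKM at day 0, 30.7 at day 11 and 8.38 at day 18 (-1.59). CABP7, a calcium-binding protein, went from 5.72 to 1.06 (-2.05), MAL, a myelin and raft protein, from 5.64 to 1.43 (-1.63), and ACSF2, an acyl-CoA synthetase, from 12.2 to 2.38 (-2.04). The remaining named falls were MBNL3, a splicing regulator (5.31 to 1.21, -1.77), ALPL, tissue-nonspecific alkaline phosphatase (3.24 to 0.81, -1.60), and HLA-H (2.79 to 0.30, -2.57), a pseudogene whose reads may come from other HLA genes and whose value swung between 0.01 and 5.79 over the course.

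Of 80 expressed cytosolic ribosomal protein genes and 71 oxidative phosphorylation subunits, 0 were at least 2-fold higher or lower, against 1.83% and 1.38% of all coding records, with medians of -0.20 and -0.14 (-0.48 and -0.42 with no centring). Values below 0 were held by 70 of the 80 ribosomal genes and by 64 of the 71 subunits, and by 5890 of all 11791 coding records (76, 71 and 9601 with no centring). RPL41 read 1662 and 1051 FPKM (-0.39) and ATP5B, the ATP synthase beta subunit, 259 and 199 (-0.10). Among 18 cholesterol and fatty acid synthesis genes (median 0.08, or -0.20 with no centring), led by HMGCS1 (307 and 279 FPKM), and 26 extracellular matrix genes (median -0.20), led by SPARC (223 and 157), 0 passed either, which is near the background at these list sizes.

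Endothelial, immune and choroid plexus markers were low on both days, and some markers of other lineages were not. The summed level of 5 endothelial markers was 1.98 FPKM at day 11 and 0.97 at day 18, that of 6 microglia and immune markers 1.29 and 1.74, and that of 7 choroid plexus and ependymal markers 5.89 and 5.81. VWF, PTPRC and TTR were each at or under 0.02 FPKM on both days. The 12 mesenchymal markers, 8 of them expressed, summed to 114 FPKM at day 11 and 59.9 at day 18, and COL1A2 fell from 9.70 to 3.81 (-1.05) while COL1A1 was listed at 0. Of 12 oligodendrocyte lineage markers, 3 were expressed (0 called), and SOX10 read 0.17 and 0.11 FPKM. Of 9 pluripotency markers, 3 were expressed (0 called), and POU5F1 (0.11 and 0.04) and NANOG were near 0. Neural crest and peripheral markers also counted 3 expressed of 10, with 0 called and TFAP2B at 70.9 and 56.0 FPKM. With 3 expressed genes in a list, 0 called is near the background. The part of these other lineages in the changes above was not tested.

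Of 2647 lincRNA records, 53 were at least 2-fold higher at day 18 (2.00%) and 23 at least 2-fold lower (0.869%). The central 95% lay between -0.79 and 0.91. Of the 53, 35 had their highest value of the 7 days at day 18 (66.0%, against 7.67% of all lincRNA records), and of the 23, 17 had their lowest (73.9%, against 52.4%). Here too the selection by the day 18 value raises both shares. Higher records made up 69.7% of those called, and 26.6% with no centring. Just inside the limits lay linc-RAMP3 (1.01) and linc-CLASP2-2 (-1.0004), and just outside linc-FERMT1-1 (0.97) and linc-MSI1-BP (-0.99).

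Of the 8 lincRNA records with the largest rises, 7 have an exon over a GENCODE pseudogene. linc-OTOGL-1 (chr12:80496681-80497140), over a processed pseudogene, was listed at 0 on days 1 to 11 and at 55.9 FPKM on day 18. It passed the filter on mean FPKM only through day 18. linc-RGPD4-5 went from 1.00 to 17.8 (4.31) and linc-ALG14-6 from 11.6 to 78.3 (3.02), both over copies of EEF1A1, the translation elongation factor, whose own record read 2127 and 1389 FPKM (-0.34). linc-ALG14-6 had also been at 104 on day 4. linc-KRTAP13-1-1 went from 3.52 to 16.5 (2.47) over RPL8P2, while RPL8 itself read 830 and 571 (-0.26). linc-ENPEP-2 went from 0.50 to 2.29 (2.28) over HSBP1P2, and linc-CD28 from under 0.01 to 1.94. Of these 2, linc-ENPEP-2 passed the filter on mean FPKM only through day 18. linc-ITM2A-2 went from 1.12 to 4.74 (2.26) over HK2P1, and there the parent HK2 rose as well (2.17). The remaining one, linc-MAP7D1-AS, was listed at 0 on day 11 and at 2.51 on day 18, and had also been listed at 0 on day 2, while MAP7D1 on the opposite strand read 42.7 and 43.6. Over all, 24 of the 53 higher records had an exon over a pseudogene (45.3%), and 1140 of the 2647 did (43.1%), so the share among higher records was close to the background. For 17 of the 24, a parent gene could be found by symbol (14 parents). That gene was at least 2-fold higher for 2 of the 17 records and below 0 for 11. Over all coding records, 1.83% were at least 2-fold higher and 5890 of 11791 were below 0. Where the reads of these lincRNA records came from was not tested. Reads that match near-identical copies may not have been separated in any of these records.

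**Figure D5:**
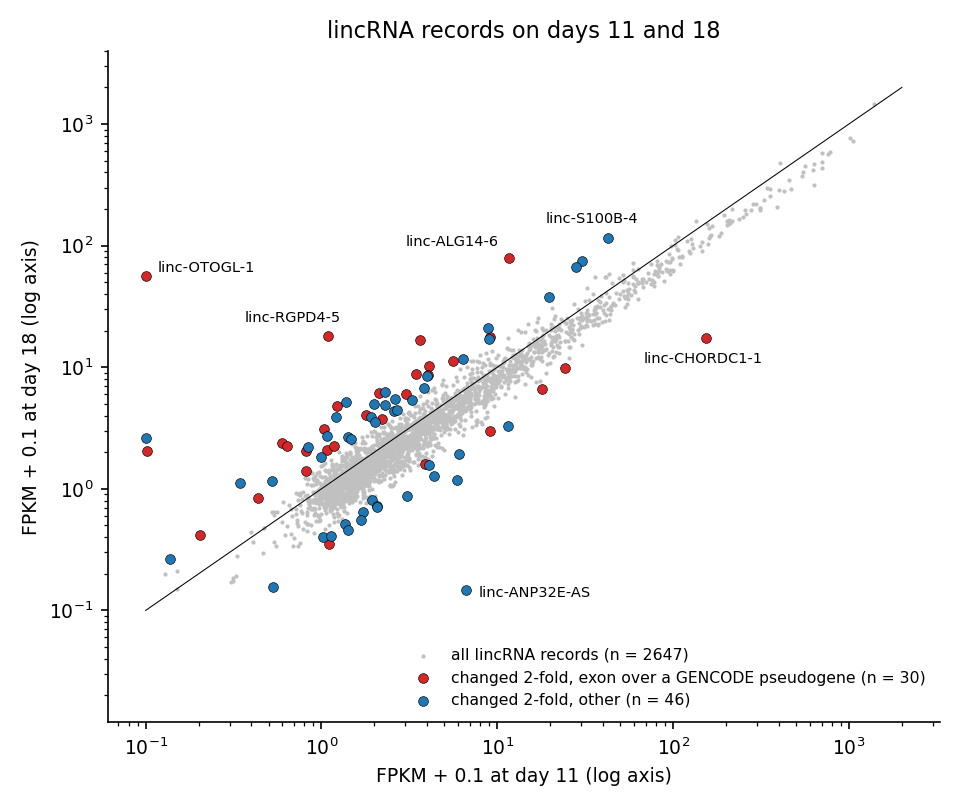
FPKM + 0.1 at day 18 (vertical log axis) against day 11 (horizontal log axis) for 2647 lincRNA records, each point 1 record, with the diagonal marking equal deposited values. Coloured points are the 76 records that changed at least 2-fold, red for the 30 with an exon over a GENCODE pseudogene. linc-OTOGL-1 sits at the left edge (listed at 0 on day 11 and 55.9 on day 18), and linc-CHORDC1-1 far under the diagonal (155 to 17.3).

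Records named as antisense to an expressed coding gene moved with it in most cases. For the 11 higher ones, the coding gene was above 0 in 11 and at least 2-fold higher in 4, with a median change of 0.84, and for the 12 lower ones it was below 0 in 11 and at least 2-fold lower in 4 (median -0.61). Over all 1030 such records the coding gene was above 0 in 478 and below in 552 (median -0.02). Examples chosen after their values were seen were linc-PFKFB3-AS at 1.11 and 3.82 FPKM (1.97), linc-PFKP-AS at 0.42 and 1.07 (1.43) and linc-DUSP4-AS at 1.80 and 3.82 (1.32). Counting by strand is not stated for these data and the default of the programs named is unstranded, so reads of an antisense record and of its coding gene cannot be told apart.

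On the lower side, linc-ANP32E-AS went from 6.54 to 0.05 FPKM (-5.23), after values listed at 0 on days 2 and 5, while ANP32E, a histone chaperone, read 44.9 and 22.1 (-0.74). linc-CHORDC1-1 went from 155 to 17.3 (-2.87), after 492 at day 0. It lies over the alpha-tubulin pseudogene TUBAP2 at chr11:90015699-90017346, and the records of TUBA1A itself were the HIDATA ones. linc-PRTG-AS went from 5.76 to 1.09 (-2.02), and PRTG, a neural adhesion molecule of the early embryo, from 19.5 to 6.12 (-1.38). linc-PCDH18-AS went from 4.27 to 1.17 (-1.51), and the protocadherin PCDH18 from 37.0 to 13.6 (-1.16). linc-ANKRD10-2 (chr13:112752020-112764960), over exons of LINC00404 and the SOX1 overlapping transcript SOX1-OT, went from 3.79 at day 0 up to 11.4 at day 11 and down to 3.18 at day 18 (-1.54), whereas ANKRD10 read -0.03. SOX1, the progenitor factor that neighbours it, read 17.1 and 8.61 FPKM (-0.70). Smaller in level were linc-SPACA7-1 (0.43 to 0.06, -1.48) and linc-FAM75A6-3 (1.01 to 0.25, -1.38), and linc-SMARCA4-AS (2.98 to 0.77, -1.55) was marked as failed.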

How the data were processed

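Polyadenylated RNA of H1-derived neural cultures was sequenced by the authors as paired-end reads on 7 days. Per the submitters' processing notes and the study's methods, reads were aligned to hg19 with TopHat2, assembled with Cufflinks and quantified with Cuffdiff2 at default options over a merged catalogue of 38369 coding and lincRNA records. Program versions are not given in the sources used here. The deposited FPKM values hold 1 value per record and day over all cultures of that day, with 0 columns for single samples, so no replicate test, standard deviation or depth could be computed from these values. A replicated fit had been planned, and fold differences without a test took its place. The authors' deposited comparison table also holds fold changes, test statistics, p-values and q-values, which were not used. Its status column, exon coordinates and pseudogene flag, a score of 0 or 1 deposited by the authors, served as annotation.

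The change was the difference in log2(FPKM + 0.1) between day 18 and day 11 less the median of that difference where the mean FPKM of the 7 days was at least 1. It understates the change of low genes. Calls needed 2-fold. Records marked HIDATA (6) were left out. Those marked as failed (360, of which 230 had a mean of at least 1 FPKM and 7 were called) were kept and are named as such. Members of 34 gene lists were matched by symbol, by the record with the highest mean FPKM on a primary chromosome. Records with several symbols are uncertain. Named genes were the 15 coding and 8 lincRNA records with the largest change in each direction, coding genes that such lincRNAs are named after, list members past 2-fold, and the 2 most abundant members of each list. Some genes that met this rule are not reported here. Any other gene was named after its values were seen. The largest changes were ranked among records on a primary chromosome with a mean of at least 1 FPKM, a mean that includes day 18. The comparison and the lists were chosen with earlier results of these data known.

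LincRNA exons were set against GENCODE v44lift37 (hg19), where 10052 of 11520 named coding records overlapped an exon of their own symbol. Promoter and microRNA sequences came from RefSeq tables of GRCh38.p14. Scripts ran in Python 3.11.15 with numpy 2.4.6, pandas 2.3.3 and matplotlib 3.10.9 and were tested on simulated data. Alternatives to centring, pseudocount, filter, fold and record set were tried.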

Additional observations from a re-analysis of the deposited data

How the results depend on the processing

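The count of coding records at least 2-fold higher at day 18 (216) became 99 with no centring, 118 with a pseudocount of 1, 466 at a mean of at least 0.1 FPKM, 73 at a mean of at least 5, 545 with no filter, 753 at 1.5-fold and 33 at 3-fold. That of coding records at least 2-fold lower at day 18 (163) became 437 with no centring, 70 with a pseudocount of 1, 653 at 1.5-fold and 12 at 3-fold. That of lincRNA records at least 2-fold higher at day 18 (53) became 33 with no centring, 241 at a mean of at least 0.1 FPKM, 14 at a mean of at least 5, 384 with no filter, 197 at 1.5-fold, 22 at 3-fold, 28 without records that carry the pseudogene flag or overlap a coding exon, and 29 without those over a GENCODE pseudogene exon. That of lincRNA records at least 2-fold lower at day 18 (23) became 91 with no centring, 8 and 38 with pseudocounts of 1 and 0.01, 78 at a mean of at least 0.1 FPKM, 6 at a mean of at least 5, 93 with no filter, 140 at 1.5-fold, 3 at 3-fold and 5 without flagged or overlapping records. Filters, folds and left-out records move counts by construction, and for the other settings the cause was not tested. The other 32 of 60 counts stayed within 1.5 times of the value given. Leaving out failed records, records listed at 0 or those over pseudogenes was chosen after seeing the data. Of 268 alternative list medians, 265 moved by less than 1.5-fold and 3 by more, and of 808 alternative values of named genes, 781 and 27. The mesenchymal median was -0.82 at a mean of at least 5 FPKM, the endothelial median -0.73 at a mean of at least 0.1 and the pluripotency median 0.16 with no filter. Among the 34 lists, 7 medians changed sign with no centring, 7 with no filter and 5 at a mean of at least 0.1 FPKM. No paired analysis was possible because the files hold 1 pooled value per day, and for the same reason no replicate could be left out.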

Other observations

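Some of the largest rises lay outside the groups described, and these genes were chosen after their values were seen. CYP26B1, which degrades retinoic acid, went from 8.47 FPKM at day 11 to 30.6 at day 18 (change 2.12), against 0.44 at day 0. IGFBP3, a binding protein of insulin-like growth factors, went from 0.94 to 3.22 (1.96), far under its 47.0 at day 0, and HMOX1, which degrades heme, from 1.85 to 5.49 (1.80). CA12, a membrane carbonic anhydrase, went from 7.03 to 16.6 FPKM, and FAM162A, a mitochondrial protein known to respond to low oxygen, from 11.1 to 27.4 (change 1.58). STC1, the relative of STC2, went from 0.58 to 2.18 (2.01).

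The replication-dependent histone genes HIST1H2BD and HIST1H2AC were also higher in this polyadenylated RNA, HIST1H2BD from 5.50 to 15.3 FPKM (1.74) and HIST1H2AC from 2.99 to 7.83 (1.63). Outside the lists, surface proteins of neurons rose too, with PCDH10 from 7.75 to 19.0 (1.56), NEGR1 from 5.20 to 12.9 (1.57) and NRN1, the activity-regulated protein neuritin, from 2.93 to 7.22 (1.55), which had read 0.06 at day 0.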
